A study of Saccharomyces cerevisiae with 255 samples.

Results

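Pub1 is an abundant yeast protein that binds poly(U) and AU-rich stretches through 3 RNA-recognition motifs, influences the stability of the mRNAs it binds and enters stress granules. Outside its RNA-binding domains it carries intrinsically disordered regions (IDRs), stretches with no fixed fold that are rich in glutamine and asparagine. The data described here concern strains from which the first or the third of these regions was removed, each set against intact Pub1, to ask how much of the binding of Pub1 to its transcripts remained without each region. The members were chosen by strain name in the sample labels, which gave 8 libraries of the 255 in the series: 4 of Pub1, 2 of Pub1_ΔIDR_1 and 2 of Pub1_ΔIDR_3.

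All strains were derived from BY4741, a MATa laboratory strain of Saccharomyces cerevisiae, and were grown exponentially in synthetic complete medium with glucose. In each of them the PUB1 gene was replaced at its own locus, so that the only Pub1 in the cell was the one fused to Pup2: PUB1::Pub1-Pup2, PUB1::Pub1_ΔIDR_1-Pup2 and PUB1::Pub1_ΔIDR_3-Pup2. Pup2 is a poly(U) polymerase, and in RNA tagging it adds uridines to the 3′ end of those mRNAs that the fused protein binds in the living cell. Sequencing from the 3′ end then counts, for every gene, the reads that carry 0 to 16 Us behind the poly(A) tail. ΔIDR_1 lacks a stretch at the N-terminal side, before the first RNA-recognition motif, and ΔIDR_3 one at the C-terminal side, after the last, as far as the study's drawings show it. The 2 libraries of Pub1_ΔIDR_3 carry the names of separate clones (C1_1 and C2_1). For the other libraries nothing says whether they came from separate cultures, so that the p-values given here reach no further than these libraries. Those of single genes rest on a spread estimated with information from all tested genes. A gene whose own libraries lie apart can therefore still have a small p. No sequencing batch is named in the labels.

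The number of reads per library ranged from 241734 to 1319709 in Pub1, from 860717 to 2573079 in Pub1_ΔIDR_1 and from 1019921 to 1799645 in Pub1_ΔIDR_3, over 6629 genes. Reads of PUB1 itself (YNL016W, chromosome XIV, 602907–604268) numbered 6 to 42 per Pub1 library, 20 and 45 in Pub1_ΔIDR_1, and 17 and 46 in Pub1_ΔIDR_3. They come from the 3′ end of the gene and so do not check either deletion. Since these are bulk cultures, fewer cells that hold a transcript and less of it per cell cannot be told apart.

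The sequences below come from behind the stop codons of genes on which the results turn. Whether these sequences lie within the mRNA was not tested. Each is the stretch of 30 bases richest in T within 150 bases after the stop codon, in the sense direction, from RefSeq's R64 annotation, and capitals mark runs of 4 or more T. The first group kept over 50% of its tagged share in both strains.
SEC53 (chrVI:43555-43584, minus strand): tttggtgattcTTTTTTatccttcttatat
TOS1 (chrII:563147-563176, minus strand): aTTTTccTTTTTTTcatttatgtttcactt
SED1 (chrIV:601854-601883, plus strand): tattatgttaTTTTTTTgttattcgTTTTT
The second group had little or no tagging left in Pub1_ΔIDR_1.
SAR1 (chrXVI:139518-139547, plus strand): tttccgcgatcatagtataTTTTagactct
PGA2 (chrXIV:349296-349325, minus strand): ttgTTTTgTTTTTagTTTTTctatagTTTT
The third group holds ADO1 and 2 pairs of near-identical genes. Tagged shares differed between the deletion strains in all of these but RPL6A, whose libraries overlapped.
RPL6B (chrXII:1029889-1029918, plus strand): tctaagtttaatcctcttctaattcaTTTT
RPL6A (chrXIII:123107-123136, minus strand): attggTTTTTTattcgcatatttatatctt
TEF2 (chrII:479118-479147, plus strand): TTTTTatctatctgcttatcaTTTTcTTTT
TEF1 (chrXVI:702016-702045, plus strand): tcttatctattagttaaTTTTTTgtaattt
ADO1 (chrX:624635-624664, plus strand): tactctacgtgttccctctagcTTTTcatt
Over the whole 150 bases T made up 50.7% in TOS1, 44.0% in SEC53, 44.7% in PGA2 and 32.7% in SAR1, against a median of 38.0% over 1886 of the 1904 genes tested. TOS1 and SEC53, which kept tagging, thus lay above the median, and PGA2 and SAR1, which lost it in Pub1_ΔIDR_1, lay on either side.

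Removal of either region left much less tagging, and removal of the first left least. The tagged share of a library, meaning reads with 4 to 13 Us as a share of all reads, was 19.8%, 24.3%, 22.4% and 24.2% in the 4 Pub1 libraries. It was 3.53% and 3.14% in Pub1_ΔIDR_1. In Pub1_ΔIDR_3 it was 5.91% in C1_1 and 7.54% in C2_1. The 3 strains did not overlap. The means were 22.7% ± 2.11 (SD, n = 4), 3.33% ± 0.277 (SD, n = 2) and 6.73% ± 1.15 (SD, n = 2), so that Pub1_ΔIDR_1 lay 6.81-fold and Pub1_ΔIDR_3 3.38-fold below Pub1. With 2 libraries against 4 the exact two-sided permutation test cannot go below p = 0.133, which both comparisons reached. Pub1_ΔIDR_1 was 2.02-fold below Pub1_ΔIDR_3, with an exact permutation p of 0.333 that is again the smallest possible for 2 libraries against 2. The 95% Wilson interval of a single library was narrow against the spread between libraries (19.7% to 19.9% in Pub1 replicate 1) and covers counting error only.

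**Figure D1:**
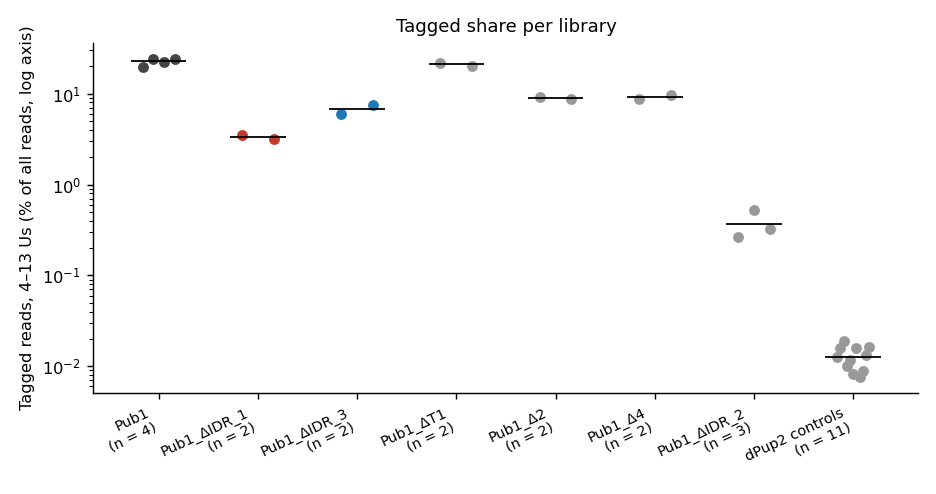
Tagged share of every library (reads with 4 to 13 Us, % of all reads, log axis), points are libraries and lines are means. The Pub1_ΔIDR_1 libraries (3.53% and 3.14%) and the Pub1_ΔIDR_3 libraries (5.91% and 7.54%) lie below all 4 Pub1 libraries and above all 11 libraries with an inactive polymerase.

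Other Pub1 strains of the series set the scale. In 11 control libraries whose Pup2 was catalytically inactive (dPup2, fused to Puf3, Puf4 or Puf5 and not to Pub1) the tagged share was 0.0127% ± 0.00381 (SD, n = 11). Pub1_ΔIDR_1 was 262-fold and Pub1_ΔIDR_3 530-fold above it, each with an exact permutation p of 0.0256, the smallest possible. Pub1_ΔT1, a shorter truncation of the N-terminal side, had 22% and 20.4% tagged reads, which overlapped with Pub1 (difference −1.49 percentage points, exact permutation p = 0.533). Pub1_ΔIDR_1 was 6.36-fold below Pub1_ΔT1 (exact permutation p = 0.333, the smallest possible). Removal of parts of the RNA-binding domains left 8.96% in Pub1_Δ2 and 9.15% in Pub1_Δ4, so that both IDR deletions had lower mean tagged shares than these. With 4 to 16 Us counted, Pub1_ΔIDR_3 had 15.6% and Pub1_Δ4 14.4%, with overlap (exact permutation p = 0.667). Pub1_ΔIDR_2, which lacks the stretch between the RNA-binding segments, had 0.368% ± 0.137 (SD, n = 3).

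Within the tagged range of 4 to 13 Us the stretches were also shorter, a measure that leaves out reads with 16 Us. A tagged read carried on average 7.64 ± 0.291 Us in Pub1 (SD, n = 4; 7.35 to 7.97), 5.90 ± 0.243 in Pub1_ΔIDR_1 (5.73 and 6.08) and 6.56 ± 0.249 in Pub1_ΔIDR_3 (6.39 and 6.74). These groups did not overlap, and their exact permutation p-values were the smallest possible, 0.133, 0.133 and 0.333. In the dPup2 controls, which had few tagged reads, the mean was 7.62 ± 1.31 (SD, n = 11), like that of Pub1. Reads with 8 to 13 Us were 43.7% of the tagged reads in Pub1, 16.4% in Pub1_ΔIDR_1 and 24.5% in Pub1_ΔIDR_3, and here the 2 deletion strains overlapped (exact permutation p = 0.667). At 6 Us, the most frequent tagged length in Pub1 and Pub1_ΔIDR_3, the mean share of all reads was 6.70%, 0.884% and 2.17%. In Pub1_ΔIDR_1 the mean at 4 Us was higher than this, at 0.941%.

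**Figure D2:**
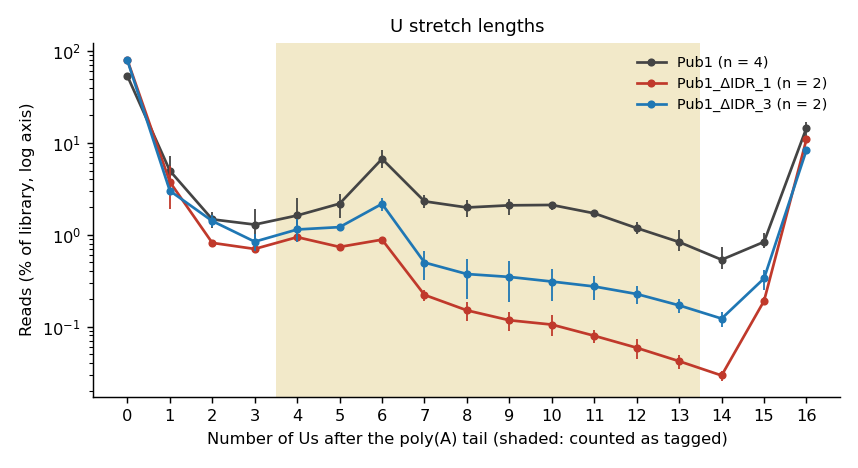
Share of reads (% of library, log axis) at each number of Us, as the mean per strain with bars from the lowest to the highest library, and shaded where reads count as tagged. Between 4 and 13 Us Pub1_ΔIDR_1 runs below Pub1_ΔIDR_3 and both run below Pub1, and at 6 Us the means are 6.70%, 0.884% and 2.17%.

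The longest length recorded behaved differently. Reads with 16 Us made up 11.5% to 16.7% of the Pub1 libraries, 10.7% and 11.3% of those of Pub1_ΔIDR_1, 7.94% and 8.84% of those of Pub1_ΔIDR_3, and 3.01% to 9.74% of the dPup2 controls. Because the inactive polymerase also gave such reads, they were not counted as tagged. With them the difference between the deletion strains was 0.975 percentage points, with overlap (exact permutation p = 0.667).

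The modification level of the study's methods weights each tagged read by its number of Us and divides by all reads of the gene. A gene above 0.15 is called a target, and a minimum of 16 RPM (reads per 1000000 reads of the library) was added here. There were then 2374 targets in Pub1, 565 in Pub1_ΔIDR_1 and 1284 in Pub1_ΔIDR_3, or 2914, 705 and 1564 without the minimum. Pub1_Δ2 had 1082 and Pub1_Δ4 had 711, both below Pub1_ΔIDR_3, so that the order of these strains was not that of the tagged share. For Pub1_Δ2 this turned around with at least 100 reads required (1075, against 955 in Pub1_ΔIDR_3). It also did so for genes above 0.15 in every library (839 against 753). Pub1_Δ4 stayed lower in both (481 and 484). Of Pub1's targets 450 were also targets in Pub1_ΔIDR_1, which is 19.0% of Pub1's list and 79.6% of the other. For Pub1_ΔIDR_3 the number was 1029, or 43.3% and 80.1%. Targets kept in Pub1_ΔIDR_1 had a median level of 2.25 in Pub1, against 0.438 for those not kept. In Pub1_ΔIDR_3 these medians were 1.60 and 0.333. With a fixed cut of 0.15 and a broad loss, genes high in Pub1 are the likeliest to stay above the cut. A gap between such medians thus follows from the definition of a target. Over all Pub1 targets the median level was 0.562 in Pub1, 0.0411 in Pub1_ΔIDR_1 and 0.123 in Pub1_ΔIDR_3. The number of targets moved with single libraries, to 464 to 751 in Pub1_ΔIDR_1, and to 963 without C2_1 and 1855 without C1_1 in Pub1_ΔIDR_3. The tagged signal remained reproducible between U lengths: the binding reliability, the median over lengths of the best correlation across genes with another length, was 0.990, 0.960 and 0.987.

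Single transcripts were then tested with edgeR's quasi-likelihood test on tagged reads, with the gene's own reads as the offset and Benjamini-Hochberg adjustment over 1904 genes that passed a filter on low counts. The filter summed tagged reads over all 8 libraries, so that the Pub1 libraries, with the most tagging, could carry a gene through it. Genes tagged mainly in a deletion strain passed less easily, so the counts of lower and higher shares are not independent of the filter. In Pub1_ΔIDR_1, 1419 genes (74.5% of those tested) had a lower tagged share than in Pub1 and 1 (0.0525%) a higher one, with a median log2 change of −3.04. In Pub1_ΔIDR_3, 998 genes (52.4%) were lower and 6 (0.315%) higher, with a median of −1.58. Between the strains, 521 genes (27.4%) were lower in Pub1_ΔIDR_1 and 9 (0.473%) were higher. The last counts rested on single libraries, with 222 lower without Pub1_ΔIDR_1 replicate 2, and 282 lower and 23 higher without C2_1. The single higher share in Pub1_ΔIDR_1 was lost without Pub1 replicate 1. The 6 higher shares in Pub1_ΔIDR_3 became 2 without Pub1 replicate 1, Pub1 replicate 3 or C2_1, 0 without Pub1 replicate 2, and 15 without C1_1. Both comparisons with Pub1 use the same 4 Pub1 libraries, so their values are given side by side.

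How much of its share a transcript kept varied widely. Among 293 genes with at least 100 reads in each library and a Pub1 share of at least 5%, the share kept in Pub1_ΔIDR_1 had a median of 9.84% of that in Pub1, and ran from 3.98% at the 10th percentile to 28% at the 90th. In Pub1_ΔIDR_3 the median was 22.5%, and the percentiles 10.9% and 54.6%. The share was higher in Pub1_ΔIDR_3 for 261 of these genes and in Pub1_ΔIDR_1 for 32. In Pub1_ΔIDR_1, 53 genes kept under 5%, and in Pub1_ΔIDR_3 none of the 293 did. Only 6 genes kept over 50% in Pub1_ΔIDR_1, namely BGL2, CWP2, NHP6A, SEC53, SED1 and TOS1, whereas 39 did in Pub1_ΔIDR_3.

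**Figure D3:**
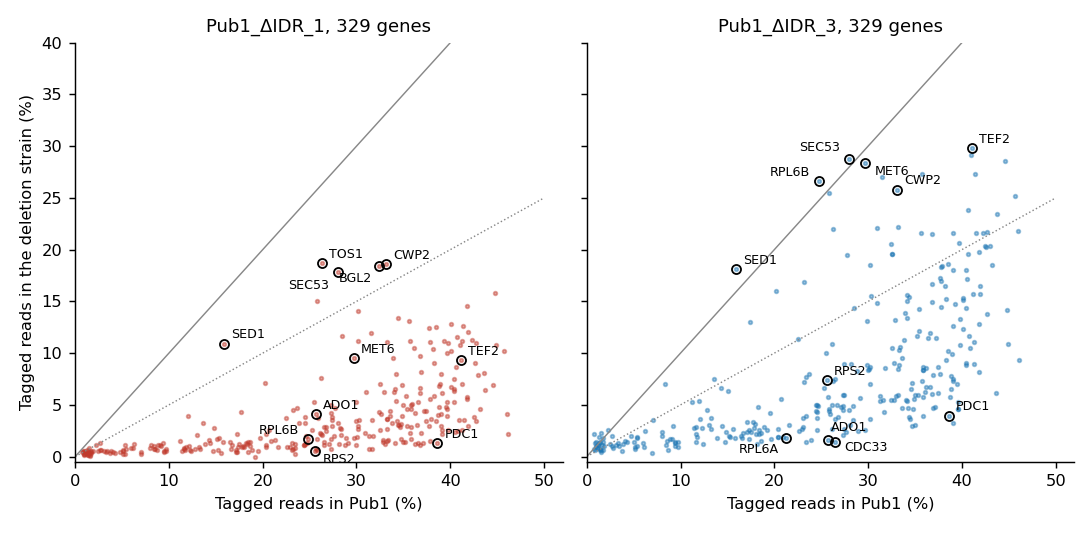
Tagged share per gene in each deletion strain against that in Pub1 (% of the gene's reads, libraries pooled) for 329 genes with at least 100 reads in each library, with a solid line for equal shares and a dotted line for 50% of the share in Pub1. Most genes lie near the bottom for Pub1_ΔIDR_1 and higher and more scattered for Pub1_ΔIDR_3, where SEC53, RPL6B and MET6 lie at the solid line.

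To find transcripts that departed from the common loss, the library's summed tagged share over the tested genes was added to the offset. The relative tagged share so obtained was higher for 167 genes (8.77% of those tested) and lower for 313 (16.4%) in Pub1_ΔIDR_1 against Pub1, and higher for 224 (11.8%) and lower for 256 (13.4%) in Pub1_ΔIDR_3. Between the deletion strains 94 genes (4.94%) were higher in Pub1_ΔIDR_1 and 176 (9.24%) lower. The balance of higher and lower calls depends on what is taken as the common loss and on the U lengths counted. With 4 to 16 Us as tagged, 831 genes were higher and 216 lower in Pub1_ΔIDR_1, 576 and 180 in Pub1_ΔIDR_3, and 184 and 141 between the strains. With the median over genes in place of the sum, the median log2 value of all genes shifted from −0.37 to 0.17 in Pub1_ΔIDR_1, from 0.09 to 0.12 in Pub1_ΔIDR_3 and from −0.38 to 0.12 between them. With that median the calls were 254 higher and 123 lower, 224 and 195, and 141 and 75, so that lower calls no longer prevailed. Without Pub1_ΔIDR_1 replicate 2, the deepest library, 89 genes were higher and 124 lower in Pub1_ΔIDR_1, and 61 higher and 72 lower between the strains.

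Among genes with at least 100 reads in each library compared and no overlap, the largest relative increases in Pub1_ΔIDR_1 were those of TOS1, SED1, SEC53, VMA7, NHP6A and BGL2. SEC53 (YFL045C, chromosome VI, 43628–44392), the phosphomannomutase that feeds mannose into protein glycosylation, had tagged shares of 24.6%, 29.8%, 29.5% and 29.4% in Pub1, 20.9% and 16.8% in Pub1_ΔIDR_1, and 29.3% and 28.6% in Pub1_ΔIDR_3. Its share in Pub1_ΔIDR_3 thus lay within the range of Pub1 (log2 difference 0.04 ± 0.20 SE, edgeR adjusted p = 0.906). Relative to the common loss it was 2.16 ± 0.14 (SE) log2 units higher in Pub1_ΔIDR_1 (adjusted p = 2.70e-49) and 1.79 ± 0.14 higher in Pub1_ΔIDR_3 (adjusted p = 6.01e-36). TOS1 (YBR162C, chromosome II, 563203–564570), a cell wall protein, had 24.1%, 27.1%, 30.3% and 30.9% in Pub1, 22% and 16.9% in Pub1_ΔIDR_1, and 24.1% and 20.9% in Pub1_ΔIDR_3. Its share was lower in Pub1_ΔIDR_1 (log2 −0.51 ± 0.23, adjusted p = 0.0367), and its relative share was 2.24 ± 0.17 and 1.45 ± 0.17 higher in the 2 strains (adjusted p = 3.25e-39 and 1.43e-16). By this relative measure TOS1 was higher in Pub1_ΔIDR_1 than in Pub1_ΔIDR_3 (log2 0.79 ± 0.19, adjusted p = 3.62e-04), although its tagged shares overlapped. The difference was smaller without C2_1 (0.49). It did not pass with 4 to 16 Us counted as tagged (0.01 ± 0.12, edgeR adjusted p = 0.960). Nor did it with the gene's reads of 0 to 3 Us as the reference (0.67 ± 0.26, edgeR adjusted p = 0.0649).

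SED1 (YDR077W, chromosome IV, 600793–601809), an abundant GPI-anchored wall protein, had 13.7%, 16.1%, 22.6% and 20.4% in Pub1, 12.1% and 10.4% in Pub1_ΔIDR_1, and 16.9% and 18.6% in Pub1_ΔIDR_3. Only the Pub1_ΔIDR_1 libraries lay below those of Pub1. The relative share of SED1 was higher by 2.17 ± 0.15 and 1.83 ± 0.14 log2 units (edgeR adjusted p = 3.19e-45 and 2.40e-34). CWP2, another GPI-anchored wall protein and one of the most-read cell wall genes, had 26.8% to 41.4% in Pub1, 20.7% and 18% in Pub1_ΔIDR_1, and 28% and 24.6% in Pub1_ΔIDR_3 (relative log2 1.87 ± 0.11 and 1.34 ± 0.11, adjusted p = 2.52e-66 and 1.81e-34). BGL2 (YGR282C, chromosome VII, 1057783–1058724), a glucanase of the wall, had 30.8% to 34.1%, then 22% and 17.3%, then 21.1% and 20.2%. Its shares in the 2 deletion strains overlapped, which given their common shares made its relative share 0.92 ± 0.15 log2 units higher in Pub1_ΔIDR_1 than in Pub1_ΔIDR_3 (adjusted p = 3.57e-08). With 4 to 16 Us counted as tagged, this difference was 0.10 ± 0.10 and did not pass (edgeR adjusted p = 0.565). NHP6A, a chromatin protein of the HMG type, had 22.4% to 29.5% in Pub1, 14% and 15.3% in Pub1_ΔIDR_1, and 28% and 24.7% in Pub1_ΔIDR_3 (relative log2 1.96 ± 0.16 and 1.74 ± 0.15). The first of these values was 0.21 ± 0.12 with 4 to 16 Us counted as tagged and did not pass (edgeR adjusted p = 0.120). VMA7, a subunit of the vacuolar ATPase, was hardly tagged in any strain, with 0.794%, 0.533%, 0.633% and 2.83% in Pub1, 0.735% and 0.447% in Pub1_ΔIDR_1, and 0.741% and 0.668% in Pub1_ΔIDR_3. Its tagged shares overlapped between the strains. Its relative share was 2.03 ± 0.79 higher in Pub1_ΔIDR_1 (adjusted p = 0.0404), a call lost without Pub1 replicate 1, 2 or 3 (adjusted p = 0.0956, 0.199 and 0.0724) and without either Pub1_ΔIDR_1 library (0.132 and 0.253).

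**Figure D4:**
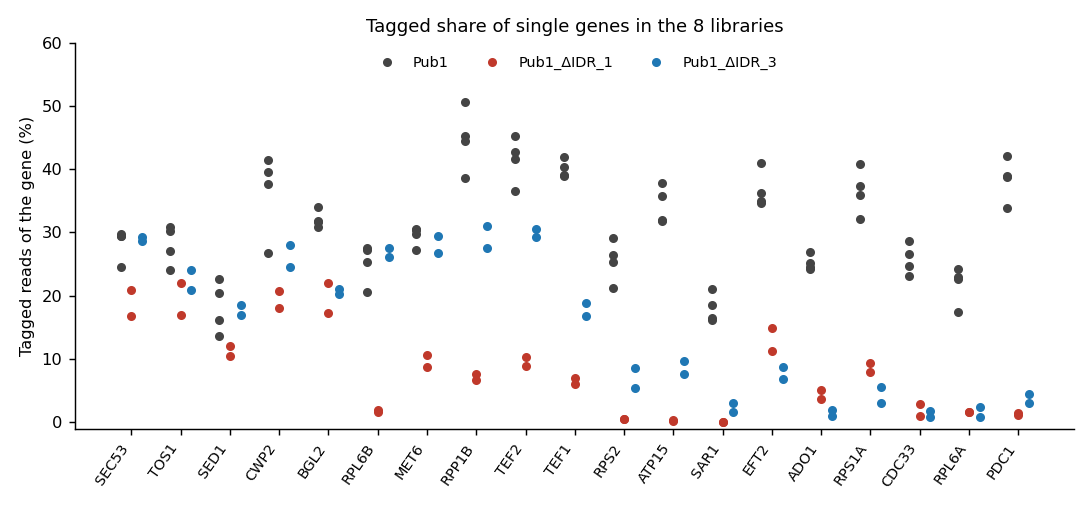
Tagged share (% of the gene's reads) of 19 genes in the 8 libraries, 1 point per library, ordered from genes that kept tagging in both strains to genes that lost it in both. RPL6B, MET6, RPP1B and TEF2 are high in Pub1_ΔIDR_3 and low in Pub1_ΔIDR_1, EFT2, ADO1 and RPS1A lie lower in Pub1_ΔIDR_3, and SAR1 is at 0 in both Pub1_ΔIDR_1 libraries.

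At the other end stood transcripts whose tagging all but vanished without the first region. SAR1 (YPL218W, chromosome XVI, 138698–139409), the GTPase that starts COPII vesicle budding, had tagged shares of 18.5%, 21.0%, 16.2% and 16.5% in Pub1 and 1.70% and 3.12% in Pub1_ΔIDR_3. In Pub1_ΔIDR_1 it had 0 tagged reads of 1322, which allows a share of up to 0.227% (a floor of 3 reads over both libraries) and places it at least 84.6-fold lower than Pub1 and at least 11.4-fold lower than Pub1_ΔIDR_3. The relative tests gave edgeR adjusted p-values of 5.98e-12 against Pub1 and 3.99e-05 between the strains. FUR1, the uracil phosphoribosyltransferase, had 26.1% to 33.8% in Pub1 and 0 of 778 reads in Pub1_ΔIDR_1, at least 76.6-fold lower. NIP1, a subunit of eIF3, had 17.9% to 23.2% in Pub1, 8.67% and 7.32% in Pub1_ΔIDR_3 and 0 of 444 reads in Pub1_ΔIDR_1, at least 31.0-fold and 11.6-fold lower. PGA2 (YNL149C, chromosome XIV, 349367–349756), an ER protein needed for maturation of the wall enzyme Gas1, had 20.6% to 24.3% in Pub1, 0.410% and 0.145% in Pub1_ΔIDR_1 (2 tagged reads in all), and 1.19% and 1.60% in Pub1_ΔIDR_3. Its relative share was lower in both (adjusted p = 2.99e-08 and 4.05e-07). Its 3′ flank, printed above, holds several T runs, whereas that of SAR1 holds few.

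RPS2 (YGL123W, chromosome VII, 277617–278381), a protein of the small ribosomal subunit, separated the strains. Its tagged shares were 21.2%, 29.1%, 25.4% and 26.5% in Pub1, 0.480% and 0.599% in Pub1_ΔIDR_1, and 5.46% and 8.61% in Pub1_ΔIDR_3. In Pub1_ΔIDR_1 the relative share was −2.68 ± 0.20 log2 units (edgeR adjusted p = 1.46e-39), whereas in Pub1_ΔIDR_3 it was −0.10 and did not pass (adjusted p = 0.622). The direct difference was −2.57 ± 0.21 (adjusted p = 2.91e-31). ATP15, the epsilon subunit of the mitochondrial F1 ATPase, had 31.8% to 37.8% in Pub1, 0.292% and 0.210% in Pub1_ΔIDR_1, and 9.68% and 7.66% in Pub1_ΔIDR_3, with a direct relative difference of −4.10 ± 0.51 (adjusted p = 8.11e-14). RPL15A and RPS23A fell in Pub1_ΔIDR_1 by a further 2.67 ± 0.25 and 2.65 ± 0.20 log2 units beyond the common loss, although RPL15A stood at 0.03 once reads with 16 Us counted as tagged. The glycolytic branch enzyme PDC1, pyruvate decarboxylase, had 33.8% to 42.1% in Pub1, 1.5% and 1.19% in Pub1_ΔIDR_1, and 3.01% and 4.52% in Pub1_ΔIDR_3, so that its relative share fell in both (−2.09 ± 0.13 and −1.60 ± 0.12, adjusted p = 8.26e-54 and 7.79e-38). AHP1, a peroxiredoxin, fell by 2.06 ± 0.20 in Pub1_ΔIDR_1 (adjusted p = 1.48e-22). This became −0.11 ± 0.10 with 4 to 16 Us counted as tagged and did not pass (edgeR adjusted p = 0.376). YMR230W-A fell by 2.56 ± 0.40 (adjusted p = 4.67e-09), a call lost without Pub1_ΔIDR_1 replicate 2 (−1.59, adjusted p = 0.0816).

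Without the third region, several transcripts kept a share like that in Pub1. RPL6B (YLR448W, chromosome XII, 1028854–1029768), for a protein of the large ribosomal subunit, had 20.6%, 27.6%, 25.4% and 27.2% in Pub1, 27.6% and 26.1% in Pub1_ΔIDR_3, but 1.96% and 1.60% in Pub1_ΔIDR_1. The 2 Pub1_ΔIDR_3 libraries lay at the upper end of Pub1, with a log2 difference in share of 0.10 ± 0.20 (edgeR adjusted p = 0.719). Its relative share was 1.87 ± 0.13 higher in Pub1_ΔIDR_3 (adjusted p = 1.09e-41), and the direct difference between the strains was −2.94 ± 0.23 (adjusted p = 7.69e-36). The near-identical RPL6A (YML073C, chromosome XIII, 123227–124172, chosen after its values were seen) did not keep its share in Pub1_ΔIDR_3. It had 17.5% to 24.2% in Pub1, 0.761% and 2.44% in Pub1_ΔIDR_3, and 1.56% and 1.62% in Pub1_ΔIDR_1, so that the deletion strains overlapped. Its relative share fell by 1.95 ± 0.18 in Pub1_ΔIDR_3 (adjusted p = 4.29e-26). The direct difference of RPL6A in relative share was 0.98 ± 0.23 (edgeR adjusted p = 2.21e-04), although its tagged shares overlapped. This difference was 0.81 without Pub1_ΔIDR_1 replicate 2, and it did not pass with limma on log2 shares (1.21 ± 0.52, adjusted p = 0.209). In Pub1_ΔIDR_1 the relative decreases of RPL6B (−1.08 ± 0.23) and RPL6A (−0.97 ± 0.18) passed, but neither did so with the median over genes as the common loss (−0.50 and −0.39, adjusted p = 0.319 and 0.354), nor did RPL6B without Pub1_ΔIDR_1 replicate 2 (−1.02, adjusted p = 0.0772). Reads of such paralogs can be exchanged where their coding ends are alike, so values of single copies are uncertain.

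MET6, methionine synthase, had 27.2% to 30.5% in Pub1, 10.7% and 8.68% in Pub1_ΔIDR_1, and 26.8% and 29.4% in Pub1_ΔIDR_3. Its relative share was 1.67 ± 0.13 higher in Pub1_ΔIDR_3 (edgeR adjusted p = 8.38e-33). PAB1, the poly(A)-binding protein and a stress granule partner of Pub1, had 30.2% to 40.2%, then 11.8% and 11.9%, then 32.1% and 24.5% (relative log2 1.31 ± 0.17 and 1.54 ± 0.16). Its value in Pub1_ΔIDR_1 was 0.06 ± 0.13 with 4 to 16 Us counted as tagged and did not pass (edgeR adjusted p = 0.689). TEF2 and TEF1 code for the same elongation factor EF-1α and differ in their 3′ flanks, printed above. TEF2 had 36.6% to 45.2% in Pub1, 10.3% and 8.83% in Pub1_ΔIDR_1, and 30.6% and 29.3% in Pub1_ΔIDR_3, whereas TEF1 had 39.0% to 41.9%, 6.95% and 6.07%, and 16.8% and 18.8%. In Pub1_ΔIDR_3 the relative share was 1.31 ± 0.10 higher for TEF2 (adjusted p = 1.67e-37) and 0.59 ± 0.10 for TEF1 (adjusted p = 1.02e-07). TEF2 was also higher in Pub1_ΔIDR_1 (0.63 ± 0.10, adjusted p = 1.09e-08), but turned to −0.18 with 16 Us included and to −0.04 with reads of 0 to 3 Us as the reference. RPP1B, of the ribosomal stalk, had 38.6% to 50.6%, 7.64% and 6.73%, and 31.1% and 27.5% (relative log2 1.17 ± 0.11 in Pub1_ΔIDR_3, direct −1.05 ± 0.14). The direct differences of TEF1, TEF2 and RPP1B shrank to −0.06, −0.29 and −0.69 with the median over genes as the common loss and then did not pass for any of the 3, nor did that of TEF1 without Pub1_ΔIDR_1 replicate 2 (−0.47, adjusted p = 0.0734). TIM10, for a chaperone of mitochondrial import, passed in Pub1_ΔIDR_3 (1.81 ± 0.39, adjusted p = 3.08e-05) but not without C2_1 (0.98, adjusted p = 0.372).

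In other transcripts the loss without the third region exceeded that without the first. ADO1 (YJR105W, chromosome X, 623581–624603), adenosine kinase, had tagged shares of 24.6%, 26.9%, 25.2% and 24.2% in Pub1, 5.16% and 3.76% in Pub1_ΔIDR_1, and 1.0% and 1.97% in Pub1_ΔIDR_3. Here Pub1_ΔIDR_3 was the lowest strain, against the order of the whole libraries. Relative to the common loss ADO1 fell by 2.28 ± 0.23 log2 units in Pub1_ΔIDR_3 (edgeR adjusted p = 1.64e-20) and was 0.19 in Pub1_ΔIDR_1 (adjusted p = 0.478), a direct difference of 2.48 ± 0.27 (adjusted p = 1.10e-17). ERG2 (YMR202W, chromosome XIII, 667537–668205), the sterol isomerase, had 22.2% to 25.8%, then 3.53% and 3.19%, then 0.225% and 2.40% (direct 2.15 ± 0.40, adjusted p = 1.43e-06). RPL12B had 23.8% to 31.0%, then 5.07% and 4.01%, then 1.16% and 2.73% (direct 2.16 ± 0.20, adjusted p = 5.88e-25). RPS1A had 32.2% to 40.8%, then 9.33% and 7.88%, then 3.05% and 5.65%, with its relative share higher in Pub1_ΔIDR_1 (0.66 ± 0.12) and lower in Pub1_ΔIDR_3 (−1.30 ± 0.14). EFT2, one of the 2 genes of elongation factor 2, did the same, with 34.7% to 41.0%, 14.9% and 11.2%, and 6.92% and 8.70% (1.23 ± 0.13 and −0.50 ± 0.14, direct 1.72 ± 0.16, adjusted p = 7.36e-25). The decrease of EFT2 did not pass with the median over genes as the common loss (−0.31 ± 0.26, edgeR adjusted p = 0.422). Nor did it with limma on log2 shares (−0.47 ± 0.14, adjusted p = 0.0571). The increase of RPS1A did not pass with 4 to 16 Us counted as tagged (0.05 ± 0.09, edgeR adjusted p = 0.610). With reads of 0 to 3 Us as the reference it was 0.32 ± 0.18 (edgeR adjusted p = 0.200).

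The rule also named UBA1, the ubiquitin-activating enzyme, and GFA1, the first enzyme of chitin precursor synthesis. Their direct differences were 2.62 ± 0.80 (edgeR adjusted p = 0.00920) and 2.56 ± 0.72 (adjusted p = 0.00396), and neither passed without Pub1_ΔIDR_1 replicate 2 (2.42 and 2.67, adjusted p = 0.189 and 0.0826). CDC33, the cap-binding protein eIF4E, had 23.2% to 28.6% in Pub1, 2.91% and 1.03% in Pub1_ΔIDR_1, and 0.896% and 1.83% in Pub1_ΔIDR_3. It fell by 2.44 ± 0.28 relative to the common loss in Pub1_ΔIDR_3 (adjusted p = 1.93e-16). Its value in Pub1_ΔIDR_1 (−1.31 ± 0.29, adjusted p = 5.01e-05) did not pass without Pub1_ΔIDR_1 replicate 2 (−0.51, adjusted p = 0.546), and the direct difference of 1.13 did not pass (adjusted p = 0.0543). NOP56, of the box C/D snoRNPs that modify rRNA, fell by 2.21 ± 0.35 in Pub1_ΔIDR_3 (adjusted p = 2.97e-09). With 4 to 16 Us counted as tagged, its value there was −0.19 ± 0.15 and did not pass (edgeR adjusted p = 0.326). VMA2, of the vacuolar ATPase, had 16% to 29.6% in Pub1, 1 tagged read in Pub1_ΔIDR_1, and 5.43% and 4.94% in Pub1_ΔIDR_3 (direct adjusted p = 8.85e-05). GLO3, an ARF GTPase-activating protein, had 0 tagged reads of 437 in Pub1_ΔIDR_1 but also 0 in 1 Pub1 library, so that it was at least 8.16-fold lower than the pooled Pub1 share of 5.60%.

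Transcripts most heavily tagged by intact Pub1 were mostly ribosomal. By modification level the first were RPS27B, RPS30B, RPP1B, RPS6B, HOR7 and RPL40A, with tagged shares between 31.8% and 56.9% in Pub1. RPS27B had 41.2% to 49.3% in Pub1, 10.4% and 10.1% in Pub1_ΔIDR_1, and 24.0% and 25.8% in Pub1_ΔIDR_3. Its relative share was higher in both (0.61 ± 0.11 and 0.88 ± 0.10), the first turning to −0.26 with 16 Us included and to −0.18 with reads of 0 to 3 Us as the reference. RPS30B had 41.7% to 48.2%, then 11.6% and 10.6%, then 8.92% and 11.9%, so that the deletion strains overlapped. RPS6B kept 17% and 13.9% in Pub1_ΔIDR_1 and 19.9% and 19.7% in Pub1_ΔIDR_3. HOR7 had 31.8% to 56.9% in Pub1, and between 7.09% and 12.1% in the 4 deletion libraries. Weakly tagged transcripts differed between the 2 clones of Pub1_ΔIDR_3. In the 494 genes with 1% to 5% tagged reads in Pub1 replicates 1 and 2, the share was 0.638% and 0.499% in Pub1_ΔIDR_1, 0.670% in C1_1 and 1.83% in C2_1, whereas in the 265 genes with 30% or more the clones had 11.9% and 13.5%. The part of this gap in the calls among weakly tagged genes was not tested.

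Gene lists show which functions these transcripts belong to. Of 44 cell wall proteins 36 passed the filter, of which 11 were higher and 1 lower in relative share in Pub1_ΔIDR_1, and 16 higher and 3 lower in Pub1_ΔIDR_3. That is 30.6% and 2.78% of the list in Pub1_ΔIDR_1, against 8.77% and 16.4% of all tested genes, and 44.4% and 8.33% in Pub1_ΔIDR_3, against 11.8% and 13.4%. Between the strains 4 were higher and 6 lower in Pub1_ΔIDR_1 (11.1% and 16.7%, against 4.94% and 9.24% of all tested genes), or 6 and 2 with the median over genes as the common loss. Their median log2 value was 0.46 in Pub1_ΔIDR_1, against −0.37 over all tested genes, and 1.02 in Pub1_ΔIDR_3, against 0.09. Besides the genes above, those higher in Pub1_ΔIDR_1 were CCW12, CCW14, DSE2, ECM33, SCW4, SUN4 and UTH1, and the one lower was CWP1. The summed tagged share of the list was 24.6% to 30.7% in Pub1, 9.31% and 8.44% in Pub1_ΔIDR_1, and 14.6% and 14.5% in Pub1_ΔIDR_3. Cytosolic ribosomal proteins split in both directions. All 138 were tested, with 32 higher and 63 lower in Pub1_ΔIDR_1, 26 and 77 in Pub1_ΔIDR_3, and 52 higher and 34 lower in Pub1_ΔIDR_1 than in Pub1_ΔIDR_3. These shares of the list, 23.2% and 45.7%, 18.8% and 55.8%, and 37.7% and 24.6%, all lay above those of all tested genes, in both directions. Such transcripts are read deeply and weigh heavily in the summed common loss, with 112984 of the 229705 tagged reads in Pub1 replicate 1. The part of depth and of this reference in the calls was not tested. With the median over genes as the common loss the first split turned to 48 higher and 22 lower, while the others became 24 and 54, and 56 and 13. Without Pub1_ΔIDR_1 replicate 2 the higher calls were 21 in Pub1_ΔIDR_1.

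The shares of all tested genes, 8.77% higher and 16.4% lower in Pub1_ΔIDR_1, 11.8% and 13.4% in Pub1_ΔIDR_3, and 4.94% and 9.24% between the strains, are also the background of the smaller lists. Of 34 translation factors tested, 8 were higher and 3 lower in Pub1_ΔIDR_1, and 8 and 8 in Pub1_ΔIDR_3, or 11 and 1, and 7 and 6, with the median over genes as the common loss. The first counts are 23.5% and 8.82%, and 23.5% and 23.5%, of the list. YEF3, elongation factor 3, was among those higher in Pub1_ΔIDR_1 (1.38 ± 0.12 log2 units relative to the common loss), with 13.9% and 13% tagged reads against 32.8% to 36.4% in Pub1. Of 17 glycolytic and fermentation genes 3 were higher and 6 lower in Pub1_ΔIDR_1, 5 and 4 in Pub1_ΔIDR_3, and 0 and 6 between the strains, which is 17.6% and 35.3%, 29.4% and 23.5%, and 0% and 35.3%. Among 21 heat-shock and stress genes the counts were 3 and 7, 5 and 7, and 2 and 5, among 39 genes of the respiratory chain and ATP synthase 5 and 7, 8 and 3, and 1 and 3, and among 29 proteasome genes 1 and 2, 3 and 3, and 0 and 0. Heat-shock genes were thus higher in 14.3% and 23.8% of the list and lower in 33.3% in either strain, above the background in both directions. Respiratory genes were higher in 12.8% and 20.5% and lower in 17.9% and 7.69%. Proteasome genes were higher in 3.45% and 10.3% and lower in 6.90% and 10.3%, below the background throughout. With the median as the common loss these splits became, in the same order, 5 and 2, 5 and 1, and 1 and 2 for glycolysis, 4 and 3, 5 and 3, and 3 and 1 for heat-shock genes, 6 and 4, 8 and 3, and 3 and 2 for respiratory genes, and 1 and 1, 3 and 1, and 0 and 0 for the proteasome. Counts this small also moved with single libraries: without Pub1 replicate 2 the lower calls of glycolysis in Pub1_ΔIDR_3 were 1, the higher calls of respiratory genes 4 and those of the proteasome 0, and without Pub1_ΔIDR_1 replicate 2 the higher calls of heat-shock genes were 1 and those of respiratory genes 2 in Pub1_ΔIDR_1. The 10 histone genes gave 5 higher and 4 lower in Pub1_ΔIDR_1, with HTA1 (1.73% and 2.18%, against 23.0% to 30.7% in Pub1) and HTA2 (1.05% and 0.448%, against 0.941% to 2.66%) at different levels already in Pub1. In Pub1_ΔIDR_3 they gave 5 higher and 1 lower, with 1 higher without C2_1. Of 49 ribosome assembly genes 1 was higher and 9 lower in Pub1_ΔIDR_1, with 0 lower without Pub1_ΔIDR_1 replicate 2, and 3 and 8 in Pub1_ΔIDR_3, with 2 lower without Pub1 replicate 1. The lower calls were 18.4% and 16.3% of the list, near the background. With the median as the common loss these were 4 and 3, and 3 and 4, and those of the histones in Pub1_ΔIDR_1 were 5 and 2. Of 28 mitochondrial ribosomal proteins 7 (25%) were higher in either strain, with 1 without Pub1_ΔIDR_1 replicate 1 and 0 without C2_1. These carry few tagged reads, 2.27% to 5.21% in Pub1. Of 13 stress granule and translation termination partners of Pub1, 3 were higher and 2 lower in Pub1_ΔIDR_1, and 2 and 2 in Pub1_ΔIDR_3, or 3 and 0, and 2 and 1, with the median as the common loss, counts too few to set against the background. Of the 2 tested transcripts with a known Pub1-bound element, MFA2, which codes for the a-factor pheromone, was lower in Pub1_ΔIDR_3.

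A run of 6 T within 150 bases after the stop codon (TTTTTT in the sense strand, overlaps counted once per gene) was present in 45.2% of the tested genes and in 36.4% of 5944 genes with such a window. By tagged share in intact Pub1 it was present in 19.8% of the genes under 1%, 30.2% from 1% to 5%, 41.9% from 5% to 10%, 50.9% from 10% to 20%, 59.3% from 20% to 30% and 65.4% from 30% upwards. It was present in 51.8% of the genes higher and 56.1% of those lower in relative share in Pub1_ΔIDR_1, against 42.0% of the rest. In Pub1_ΔIDR_3 it was present in 57.4% of those higher and 41.6% of those lower, against 43.9% of the rest. Between the strains, 67.8% of the genes lower in Pub1_ΔIDR_1 and 41.5% of those higher held it, against 43.0% of the rest. The groups were not matched by tagged share in intact Pub1, with which the run became more frequent. These are matches of letters, given as a description.

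Total reads, a measure of mRNA level, changed for far fewer genes. Over 5185 genes tested with edgeR, 111 (2.14%) were higher and 189 (3.65%) lower in Pub1_ΔIDR_1 than in Pub1, and 114 (2.20%) were higher and 122 (2.35%) lower in Pub1_ΔIDR_3. Between the deletion strains 0 genes (0%) were higher and 0 (0%) lower by edgeR, with 157 at an unadjusted p under 0.05, 0 by DESeq2, and 23 higher and 7 lower in a fit of these 2 strains alone. The counts against Pub1 leaned on single libraries: in Pub1_ΔIDR_1 they were 48 higher and 106 lower without Pub1 replicate 2, 68 and 61 without Pub1_ΔIDR_1 replicate 1, and 43 and 92 without replicate 2. In Pub1_ΔIDR_3 they were 67 and 76 without Pub1 replicate 2, 50 and 25 without C1_1, and 21 and 17 without C2_1.

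MFA1, a gene of the a-factor pheromone, had 527, 238, 335 and 327 RPM in Pub1, 1598 and 1720 in Pub1_ΔIDR_1, and 2389 and 2612 in Pub1_ΔIDR_3. All 4 deletion libraries lay above Pub1, with log2 changes of 2.14 ± 0.24 (edgeR adjusted p = 5.79e-05) and 2.75 ± 0.24 (adjusted p = 4.36e-06). PRY1, a secreted sterol-binding protein, had 20.7 to 64.7 RPM in Pub1, 193 and 236 in Pub1_ΔIDR_1, and 334 and 366 in Pub1_ΔIDR_3 (2.13 ± 0.23 and 2.84 ± 0.23). SED1, which kept its tagging, had 754, 546, 454 and 426 RPM in Pub1, 2199 and 1801 in Pub1_ΔIDR_1, and 2308 and 2539 in Pub1_ΔIDR_3 (1.79 ± 0.20 and 2.10 ± 0.20, adjusted p = 5.75e-05 and 8.35e-06). CWP2 had 1750 to 3511 RPM in Pub1 and 5491 to 7058 in the 4 deletion libraries (1.37 ± 0.22 and 1.35 ± 0.22, adjusted p = 0.00158 and 0.00195), the latter not passing without C2_1 (1.25, adjusted p = 0.0695). The increase of CWP2 in Pub1_ΔIDR_1 did not pass with the replicate number as a block (1.17 ± 0.45, edgeR adjusted p = 0.110). TOS1 and SEC53, in contrast, had 455 to 775 and 692 to 914 RPM in Pub1 and values that overlapped with these in Pub1_ΔIDR_1 (412 and 696, 890 and 927). YGP1, a secreted glycoprotein, rose by 2.60 ± 0.46 and 3.09 ± 0.46, the first not passing with DESeq2 (2.84 ± 1.01, adjusted p = 0.0733). YRO2 rose by 2.35 ± 0.41 and 2.71 ± 0.40, the first shrinking to 2.05 without Pub1_ΔIDR_1 replicate 2. MPC3, of the mitochondrial pyruvate carrier, and HOS2, a histone deacetylase, rose in Pub1_ΔIDR_1 (2.75 ± 0.60 and 2.34 ± 0.50), but did not pass without replicate 1 (2.21, adjusted p = 0.102) and without replicate 2 (0.90, adjusted p = 0.509). NSE4, of the Smc5-Smc6 complex, had 19.6 RPM in C1_1 and 393 in C2_1, and its increase in Pub1_ΔIDR_3 (4.64 ± 0.74, adjusted p = 0.00144) rested on C2_1 (1.17 without it, adjusted p = 0.368).

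Among the genes that fell, HXT2, a glucose transporter, had 427, 452, 240 and 298 RPM in Pub1, 74.4 and 38.5 in Pub1_ΔIDR_1, and 42.2 and 74.5 in Pub1_ΔIDR_3. No deletion library reached the lowest Pub1 library, and the log2 changes were −2.80 ± 0.31 and −2.63 ± 0.30 (edgeR adjusted p = 5.75e-05 and 8.33e-05). IRC18 had 41.4 to 69.9 RPM in Pub1 and 0.980 to 4.66 in the deletion libraries (−3.61 ± 0.39 and −4.41 ± 0.45). FIT2, a wall protein of iron uptake, and YLR460C fell in Pub1_ΔIDR_1 by 2.19 ± 0.36 and 2.18 ± 0.26, and PRM5 by 2.17 ± 0.47, the last not passing without replicate 1 (−1.81, adjusted p = 0.0786). In Pub1_ΔIDR_3, ANB1, the hypoxic form of eIF5A, fell by 3.27 ± 0.47, YNL195C by 2.63 ± 0.33, and TIR1, a wall mannoprotein, by 2.28 ± 0.36, TIR1 not passing without C2_1 (−1.88, adjusted p = 0.0941).

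Of the 55 tested genes of the respiratory chain and ATP synthase, 11 were higher and 3 lower in Pub1_ΔIDR_1, and 22 higher and 1 lower in Pub1_ΔIDR_3, where 2.14% and 3.65%, and 2.20% and 2.35%, of all genes tested were higher and lower, with median log2 changes of 0.37 and 0.67 against 0.01 and 0.00 over all genes. The increases lay between 0.79 and 1.20 and between 0.70 and 1.74 log2 units. The higher calls were 0 without Pub1_ΔIDR_1 replicate 2 and 3 without C2_1, while the summed level was 6424 to 7119 RPM in Pub1, 7332 and 8597 in Pub1_ΔIDR_1, and 9384 and 10108 in Pub1_ΔIDR_3. COR1, of complex III, and ATP5, of the ATP synthase stalk, both chosen after their values were seen, had 65.2 to 86.3 and 41.9 to 61.3 RPM in Pub1. COR1 had 143 and 167 RPM in Pub1_ΔIDR_1 and 191 and 200 in Pub1_ΔIDR_3 (0.99 ± 0.19 and 1.33 ± 0.19, edgeR adjusted p = 0.00510 and 5.36e-04). ATP5 had 99.9 and 134, then 144 and 135 (1.10 ± 0.22 and 1.34 ± 0.22, adjusted p = 0.00657 and 0.00156), and neither gene passed in Pub1_ΔIDR_1 without replicate 2 (0.75 and 0.74, adjusted p = 0.105 and 0.162). Of 43 cell wall genes tested, 9 were higher and 1 lower in Pub1_ΔIDR_1, and 10 higher and 2 lower in Pub1_ΔIDR_3, against the same 2.14% and 3.65%, and 2.20% and 2.35%, of all genes, with at least 6 and 4 higher when 1 library was left out. The part that mRNA level has in the tagged shares of such genes was not tested.

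**Figure D5:**
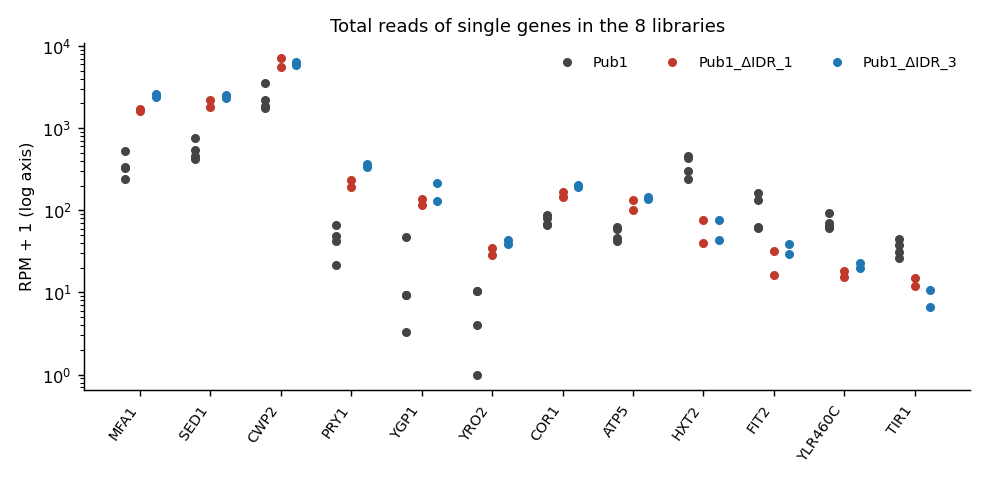
Total reads (RPM + 1, log axis) of 12 genes in the 8 libraries, 1 point per library. MFA1, SED1 and PRY1 lie above Pub1 in all 4 deletion libraries, and HXT2 (74.4 and 38.5 RPM in Pub1_ΔIDR_1, 42.2 and 74.5 in Pub1_ΔIDR_3) lies below all 4 Pub1 libraries.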

How the data were processed

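RNA tagging libraries of Saccharomyces cerevisiae were analysed from count tables deposited by the authors, 1 per library, which give per gene the reads with 0 to 16 Us. Per the labels and the study's methods, reads with a 3′ adapter that holds a unique molecular identifier were aligned, and sense reads were counted in a window around the termination site that began 300 nt before it and ended 100 nt after it. The submitters' processing notes name cutadapt, bcl2fastq, Bowtie2, bedtools and build R64, with no versions. How the identifiers entered the counts is not given in the sources used here.

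All values printed were computed from these counts: reads with 4 to 13 Us as a share of all reads (tagged share), RPM, and the modification level. No column of other samples was used (0 columns without a sample). Of 6629 gene IDs, 5956 matched RefSeq's R64 annotation. A gene was tested if its tagged reads summed to 10 or more in these 8 libraries, its mean was 16 RPM or more and no library lacked it. The test was made with edgeR 4.0.16 (R 4.3.3), quasi-likelihood, in a single fit of the 3 strains with the log of the gene's reads as the offset. Total reads were fitted with TMM and filterByExpr. Adjusted p under 0.05 was the threshold. Each log2 value is given ± a standard error worked out from the log2 value and the test statistic, which shares information between genes. Single values per library were compared with exact two-sided permutation tests (scipy 1.17.1, numpy 2.4.6, pandas 2.3.3, Python 3.11.15), and figures were drawn with matplotlib 3.10.9. The scripts were tested on simulated data.

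The text names, per comparison, the genes with the largest relative change (6 in each direction, at least 100 reads in each library compared, no overlap) and total change (5 in each direction, no overlap), the 6 highest modification levels in Pub1, and up to 4 of the most-read members of each of 12 gene lists, taken from common knowledge of yeast genes. Members and lists were chosen with earlier results of these data known. Not all genes so named are described. Alternatives were other U lengths, filters, tests (limma 3.58.1, DESeq2 1.42.0), normalizations, common losses, targets' thresholds, a replicate block, and leaving out each library. Replicates differed by more than sampling noise in every pair, so all were kept. Intervals and floors (3 reads for a count of 0) cover counting error only.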

Additional observations from a re-analysis of the deposited data

Results flagged for a closer look

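Samples far from the rest of their group were looked for in 163 sets of 4 Pub1 values, and 8 were found. Chance alone lets about 1 set in 20 pass the cut used. The number found was thus near that given by chance, and the values below are a description only. The tagged share of SEC53 was 24.6% in Pub1 replicate 1, below the other 3 libraries, as was that of AHP1 (12.7%). The tagged share of VMA7 was 2.83% in Pub1 replicate 4, the shallowest library. In total reads, Pub1 replicate 1 stood apart for YGP1 (45.7 RPM), HOR7 (967 RPM) and the histone gene HHF2 (1643 RPM), Pub1 replicate 2 for GCN4 (851 RPM) and Pub1 replicate 3 for VMA7 (368 RPM).

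U lengths outside the tagged range were above those of all 11 libraries with an inactive polymerase in 4 cases. Reads with 14 or 15 Us made up 0.219% in Pub1_ΔIDR_1 and 0.455% in Pub1_ΔIDR_3 (controls 0.0631%), reads with 16 Us 11% in Pub1_ΔIDR_1 (controls 6.73%), and reads with 1 to 3 Us 5.26% in Pub1_ΔIDR_3 (controls 2.13%).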

How the results depend on the processing

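The lower tagged share of both deletion strains kept its direction and its lack of overlap under every alternative run, with differences of −20.3 to −18.8, −16.9 to −15.2 and −4.21 to −2.58 percentage points (ΔIDR_1 and ΔIDR_3 against Pub1, and between them) when 1 library was left out, except that the deletion strains overlapped with 16 Us counted. Over 99 single-gene results there were 1523 values under alternatives: 1449 stayed on their side of the threshold, 69 lost it and 5 reversed, all in ΔIDR_1 (RPL15A 0.03, RPS27B −0.26 and TEF2 −0.18 with 4 to 16 Us, RPS27B −0.18 and TEF2 −0.04 against reads of 0 to 3 Us). UBA1 between the strains also missed the threshold in a fit of these 2 strains (2.58, edgeR adjusted p = 0.10). The cause was not tested.

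Counts of genes moved as follows. With 4 to 16 Us, higher shares were 22 in ΔIDR_1 and 23 between the strains, lower shares between them 160, and higher relative shares 831, 576 and 184. With 5 to 13 Us, higher shares were 0 in ΔIDR_1 and 3 in ΔIDR_3, and without a filter 0 and 2. With limma, ΔIDR_3 had 0 higher shares, and 123 higher and 121 lower relative shares. A fit of the 2 deletion strains gave 271 lower shares, 62 higher and 108 lower relative shares, and 23 higher and 7 lower total reads. With the median as the common loss, relative shares were 254 higher and 123 lower in ΔIDR_1, and 75 lower between the strains. Total reads between the strains gave 1 higher and 2 lower gene without a filter, and 2 lower without reads of 16 Us. Targets above the level in every library were 1171, 305 and 753. At a level of 0.1 ΔIDR_1 had 889, and at 0.3 ΔIDR_1 had 239 and ΔIDR_3 644. Reliability by Spearman was 0.691, 0.536 and 0.579, and 0.978 in Pub1 as the mean of single libraries.

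Leaving out 1 library, lower shares ranged over 1040–1464, 821–1004 and 222–701, higher shares over 0–1, 0–15 and 6–23. Lower relative shares ranged over 124–343, 206–257 and 72–205, higher ones over 89–183, 156–241 and 61–108. Lower total reads ranged over 61–194, 17–147 and 0–2, higher ones over 43–128, 21–142 and 0–1. Targets ranged over 2236–2466, 464–751 and 963–1855, reliability over 0.988–0.989, 0.924–0.960 and 0.961–0.983. A fit without 1 of the 2 libraries of a deletion strain assumes that the lone library varies like the other groups.

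With the replicate number as a block for Pub1 and ΔIDR_1, shares were 0 higher and 1109 lower, relative shares 139 and 278, total reads 159 and 160, and the difference per library −18.7 percentage points. Deviations of same-numbered libraries correlated at 0.129 and −0.0811 over only 2 pairs, so the numbers were not taken to pair the libraries.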
